A study of Homo sapiens with 52 samples.

Results

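Translation complex profiling (TCP-seq) of HEK293T cells that lack MCTS1 was compared with that of wild type cells. The comparison holds 6 libraries of the 52 samples in the series: 2 replicates of MCTS1 KO clone #1, 2 replicates of MCTS1 KO clone #2, and wild type (WT) replicates 3 and 4. WT replicates 3 and 4 were the control because their library names are in the same run as those of the MCTS1 KO. WT replicates 1 and 2, which the comparison did not use, served as a check. Their library names are in another run, with those of cells that lack eIF2D. A run here means only library names that follow each other, and the labels name no batch. A difference between the wild type pairs hence cannot be told apart from one that goes with these runs of names. HEK293T is a transformed line from human embryonic kidney, each knockout has 2 numbered lines in the labels, called clones here, and no treatment is named for any of these groups. The labels do not say how the knockouts were made, and they do not say whether replicates were grown apart. The p-values hence cover only library-to-library spread, which can be technical. Other assays drawn on below are RNA-seq of polyadenylated RNA and Ribo-seq of the same 2 clones and wild type, TCP-seq of 2 eIF2D KO clones, RNA-seq and Ribo-seq of cells with 2 siRNAs against DENR measured against siControl cells, and 40S Sel-TCP-seq, in which small-subunit complexes were selected through V5-tagged MCTS1, DENR or eIF2D. Each of these groups had 2 libraries. 42 samples of the series have a column in the table, and the 10 others, which are TCP-seq with a vector or re-expressed eIF2D, were not analysed here.

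MCTS1 forms a heterodimer with DENR, and the pair binds the small (40S) ribosomal subunit. After termination, when the large subunit has left, it helps to remove the deacylated tRNA from the 40S subunit and so supports recycling of that subunit. The pair is also known for reinitiation, in which a 40S subunit that has translated a short upstream open reading frame resumes scanning and starts again further along the mRNA. eIF2D carries related domains within the same polypeptide. TCP-seq reads the mRNA fragments protected by ribosomal complexes. A count per transcript, as deposited, does not tell a fragment under a scanning 40S subunit from one under a full ribosome, nor where on the transcript it lay.

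The table holds whole-number counts for 226882 Ensembl transcript identifiers. No source used here pairs them with genes. The level of MCTS1 itself therefore could not be checked in any library, no gene lists were tested, and 4 transcripts are described by their identifiers. The 6 libraries held between 1609303 and 3853825 counts, on 101368 to 118962 transcripts. Within each wild type and MCTS1 KO group the variance between replicates was 1.20 to 1.42 times that of counting alone. WT libraries of the different pairs differed by 2.11 to 3.08 times, so the 2 pairs of wild type libraries stand apart from each other. Clone #1 libraries differed from WT 1 and 2 by 1.98 to 2.16 times, in the lower part of that range or below it. Clone #2 libraries differed from WT 1 and 2 by 2.90 to 4.30 times. From WT 3 and 4, the control, clone #1 libraries differed by 2.36 to 3.12 times, within or just above the range between the wild type pairs. Clone #2 libraries differed from WT 3 and 4 by 4.44 to 5.75 times. Depth was not made equal for these values. Transcripts that overlap can share reads. Among the 50991 transcripts with enough counts to be tested there were 48968 distinct sets of TCP-seq counts.

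Transcripts moved in both directions in the knockout. For the mean of both clones against WT 3 and 4, 3710 transcripts were higher (7.28% of those tested) and 3344 were lower (6.56%) at an adjusted p under 0.05 (edgeR quasi-likelihood test, Benjamini-Hochberg adjustment), together 13.8%. Such transcripts are called below. The clones differed in the number called. Clone #1 alone had 1615 higher (3.17%) and 932 lower transcripts (1.83%), together 4.99% of those tested. Clone #2 alone had 5298 higher (10.4%) and 4460 lower (8.75%), together 19.1%. The split of clone #2 shifted to 6485 higher and 3535 lower when libraries were scaled by their totals alone. Clone #2 was also the more deeply sequenced, with 3294478 and 3853825 counts against 1969167 and 1609303 for clone #1. With all libraries thinned to the smallest total, clone #2 had 5949 calls and clone #1 had 1974, so clone #2 still had more. The mean of both clones then had 2485 higher and 2523 lower. Wild type replicate 3 bears on these numbers: without it the mean of both clones had 2490 calls, 1049 higher and 1441 lower, which turns the split, clone #1 had 915 and clone #2 had 4135, and without replicate 4 the mean had 4087 and clone #2 had 6438. Without its own replicate 1, clone #1 had 682 calls and clone #2 had 5478.

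Of these, 1743 transcripts (3.42% of those tested) moved alike, which means that they were called for the mean and in each clone alone with the same sign. 1062 of them were higher (2.08%) and 681 were lower (1.34%). Both clones were measured against the same WT libraries, so this count is a description of the choice and not independent support. The higher transcripts had a median log2 change of 0.82 (quartiles 0.63 and 1.06), with 317 at 2-fold or more and 13 at 4-fold or more. The lower ones had a median of -0.999 (quartiles -1.30 and -0.82), 340 at 2-fold or more and 21 at 4-fold or more. The choice fixes the sign in each clone. The higher set had medians of 0.82 in clone #1 and 0.80 in clone #2, the lower set had -0.95 and -1.03, and the direct test between clones called 58 of the higher (5.46%) and 62 of the lower transcripts (9.1%) different, where it called 3.44% of all transcripts tested. Grouped by shared reads, which here means a correlation above 0.95 between their replicate deviations, the higher transcripts made up 575 groups and the lower ones 493. Without replicate 1 of clone #1, 475 transcripts moved alike, and without WT replicate 3 there were 599. The excess of higher transcripts turned without WT replicate 3, to 244 higher and 355 lower, and with a minimum count of 30 it was gone, at 942 and 943.

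**Figure D1:**
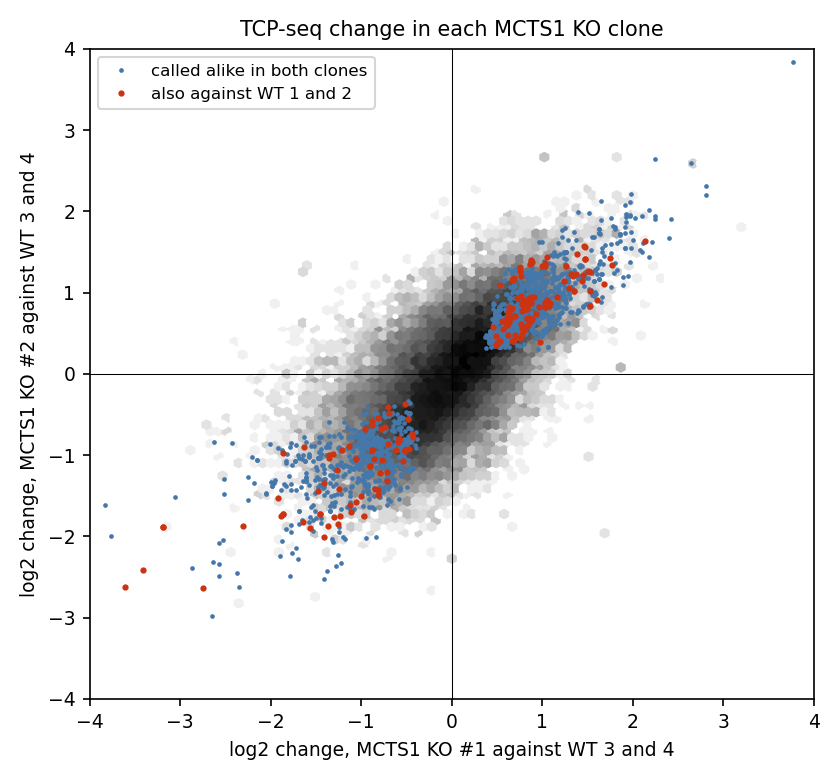
Log2 change of TCP-seq in MCTS1 KO clone #1 (x axis) and clone #2 (y axis), each against WT replicates 3 and 4. Grey hexagons show all transcripts tested (darker is denser, log scale), blue points those called alike in both clones, and red points those that also moved alike against WT replicates 1 and 2. Both axes share the WT libraries, and 6 transcripts with a change beyond 4 in size are not drawn.

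Smaller changes were called in the more abundant transcripts. In quartiles of the level in WT 1 and 2, from low to high, 35, 44, 141 and 842 transcripts were higher alike and 36, 61, 138 and 446 were lower alike. Over the same quartiles the median log2 change of the higher ones went from 1.82 to 0.74 and that of the lower ones from -1.69 to -0.89. A call at low counts needs a larger change, so the cut on the adjusted p partly fixes these medians. The part of depth was not tested by level.

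2 transcripts with the largest falls are described first, since they were also lower against WT 1 and 2. They are ENST00000227507.2 and ENST00000474340.1, the largest falls among transcripts that moved alike with a mean of at least 5 CPM (counts scaled to equal library totals) over the 6 libraries. ENST00000227507.2 had a TCP-seq level of 15.5 and 12.6 CPM in WT 3 and 4. It had 2.03 and 0 CPM in clone #1 and 3.64 and 1.3 CPM in clone #2. These knockout values rest on few reads, with 4, 0, 12 and 5 counts. WT 1 and 2 had 7.46 and 7.28 CPM. All 4 knockout libraries were therefore below all 4 wild type libraries, although the WT pairs themselves did not overlap. The choice all but fixes this for WT 3 and 4, where it held for 674 of the 681 transcripts lower alike. For all 4 wild type libraries it held for 381 of them (55.9%). The share among all transcripts tested is not given here. The log2 change against WT 3 and 4 was -3.12 ± 0.37 (SE, adjusted p = 1.7e-11 in edgeR), with -3.61 in clone #1 and -2.63 in clone #2. Against WT 1 and 2 it was -2.16 ± 0.43 (edgeR adjusted p = 0.00017). One library matters for its size: without replicate 1 of clone #1, which leaves that clone with its library at 0, the change was -5.51.

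The same transcript was lower in the other assays of these clones. In RNA-seq it had 5.49 and 4.9 CPM in wild type, 1.15 and 1.11 in clone #1 and 1.81 and 1.37 in clone #2, a log2 change of -1.95 ± 0.10 (edgeR adjusted p = 2e-26). Its Ribo-seq level was 1.63 and 2.23 CPM in wild type against 0.608 to 0.942 CPM in the 4 knockout libraries, a log2 change of -1.40 ± 0.20 (edgeR adjusted p = 0.00011). The mRNA thus fell together with the TCP-seq signal. TCP-seq relative to RNA-seq, tested as an interaction in one model, was at -1.29 ± 0.46 (SE, edgeR adjusted p = 0.046). The wild type TCP-seq libraries of that model were the pair that chose the transcript. Against WT 1 and 2 its TCP-seq change was -2.16 ± 0.43, near its RNA-seq change of -1.95. The interaction was not tested with WT 1 and 2, so a fall beyond that of the mRNA was shown with the choosing pair only. In TCP-seq of the eIF2D KO this transcript stood at 13.4 and 7.64 CPM in clone #1, within the range of the wild type libraries, and at 27.1 and 26.4 CPM in clone #2, above every wild type and MCTS1 KO library. The mean change of the eIF2D KO clones against WT 1 and 2 was 1.08 (edgeR adjusted p = 0.013).

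ENST00000474340.1 fell in TCP-seq, while its mRNA was not called for the mean of both clones. Its TCP-seq level was 16.3 and 10.0 CPM in WT 3 and 4, and 8.43 and 8.84 CPM in WT 1 and 2. Clone #1 had 3.05 and 0.621 CPM and clone #2 had 2.73 and 1.82 CPM, from 6, 1, 9 and 7 counts. Again all 4 knockout libraries were below all 4 wild type libraries, which the choice of the transcript all but fixes for WT 3 and 4. The log2 change was -2.69 ± 0.36 against WT 3 and 4 (edgeR adjusted p = 1e-09) and -2.03 ± 0.39 against WT 1 and 2 (edgeR adjusted p = 8.1e-05). The clones had -2.75 and -2.63. RNA-seq had 8.97 and 9.64 CPM in wild type and between 7.8 and 11.4 CPM in the knockout libraries, where the ranges overlap, with a log2 change of 0.00 ± 0.06 (edgeR adjusted p = 0.99). That mean covers clones that went opposite ways, with 0.19 in clone #1 (edgeR adjusted p = 0.0086, called higher) and -0.19 in clone #2 (edgeR adjusted p = 0.053). Relative to RNA-seq, the TCP-seq change of ENST00000474340.1 was -2.81 ± 0.36 (edgeR adjusted p = 9.2e-08). The TCP-seq libraries of that model were those that chose the transcript, so this value is a description. The interaction was not tested with WT 1 and 2. In Ribo-seq its log2 change was -0.07 (0.13 in clone #1 and -0.27 in clone #2), and in eIF2D KO TCP-seq it was -1.0 (edgeR adjusted p = 0.086).

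The 2 largest rises, ENST00000491235.1 and ENST00000456658.1, were called against WT 3 and 4 and not against WT 1 and 2. ENST00000491235.1 had 2.85 and 2.1 CPM in WT 3 and 4, 15.7 and 11.2 CPM in clone #1 and 7.28 and 12.5 CPM in clone #2. The values in WT 3 and 4 rest on 7 and 4 counts. WT 1 and 2, at 8.11 and 11.4 CPM, lay within the range of the knockout libraries. Its log2 change was 2.16 ± 0.38 against WT 3 and 4 (edgeR adjusted p = 7.1e-06) and 0.29 ± 0.26 against WT 1 and 2 (edgeR adjusted p = 0.59), and the WT pairs differed by -1.87 (edgeR adjusted p = 0.0041). In RNA-seq its log2 change was 0.35 (edgeR adjusted p = 0.0076), and in Ribo-seq it was 0.39 (edgeR adjusted p = 0.16).

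ENST00000456658.1 behaved likewise in TCP-seq. Its level was 1.22 and 2.1 CPM in WT 3 and 4, 6.16 and 4.16 CPM in WT 1 and 2, 8.13 and 4.35 CPM in clone #1, and 9.11 and 7.01 CPM in clone #2. WT 3 and 4 held only 3 and 4 counts of it. The log2 change was 2.09 ± 0.48 against WT 3 and 4 (edgeR adjusted p = 0.00084), was no longer called without WT replicate 3, and was 0.40 ± 0.34 against WT 1 and 2 (edgeR adjusted p = 0.56). This transcript had 0 counts in both wild type RNA-seq libraries and in both of clone #2, and 12 and 44 counts in those of clone #1, so it did not pass the RNA-seq filter. Ribo-seq nevertheless had 8.03 and 8.95 CPM of it in wild type and 8.1 to 8.99 CPM in the knockout libraries, a log2 change of -0.01 (edgeR adjusted p = 0.96).

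**Figure D2:**
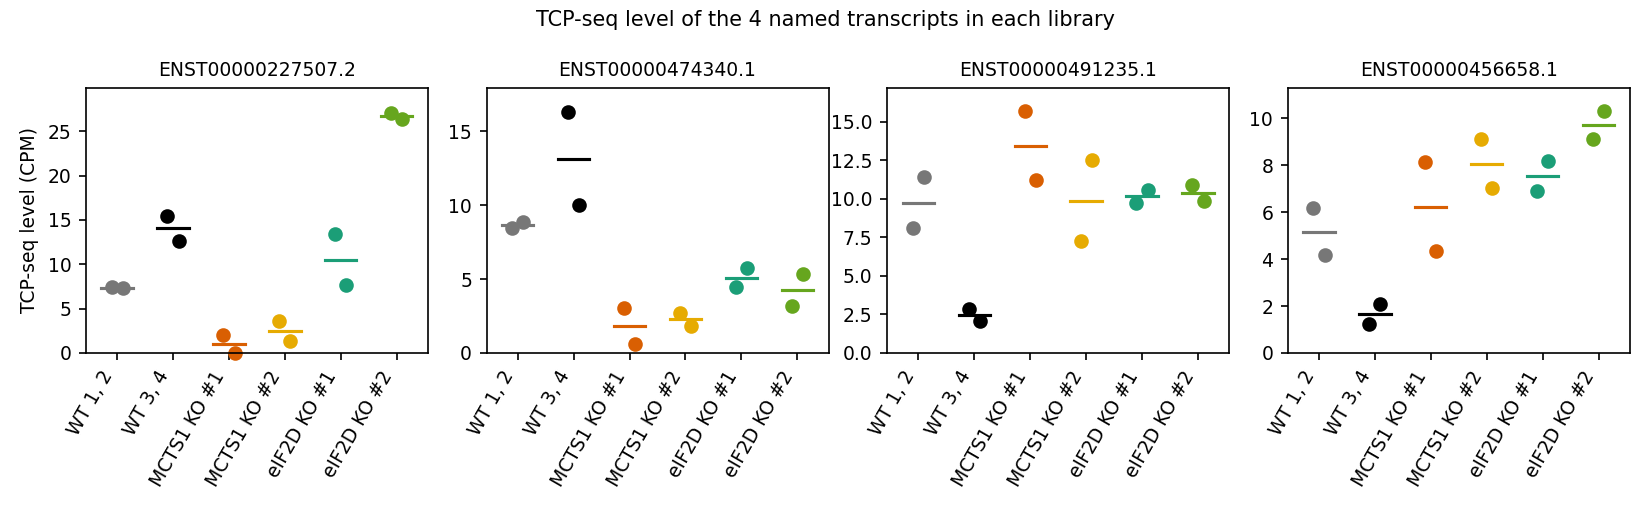
TCP-seq level in CPM (y axis, linear) of the 4 named transcripts in each of the 12 plain TCP-seq libraries; points are libraries and lines are means of 2. For the 2 falls on the left, every MCTS1 KO library lies below every WT library, and for the 2 rises on the right only WT 3 and 4 are low. The 4 transcripts were chosen by their change against WT 3 and 4.

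The check on WT 1 and 2 was then made for all transcripts that moved alike. With this control 3425 transcripts were called for the mean of both clones (6.72% of those tested), 1746 higher and 1679 lower. Of the 1062 higher transcripts, 894 (84.2%) kept their sign and 368 (34.7%) were called in the same direction, while 11 were called lower. The corresponding background is 3.42% called higher among all transcripts. The median log2 change of the set was 0.33 with this control, where it had been 0.82. Of the 681 lower transcripts, 636 (93.4%) kept their sign, 249 (36.6%) were called lower against a background of 3.29%, and 0 were called higher, with a median of -0.52. In this lower set edgeR had 5 higher at an unadjusted p under 0.05 and DESeq2 called 0. The same knockout libraries enter both comparisons, so part of the likeness is shared by construction.

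The 2 pairs of wild type libraries differed in these sets, and WT 3 and 4 enter both this difference and the choice of the sets, so a difference of this direction is partly built in and no test is drawn from it. WT 3 and 4 against WT 1 and 2 gave 1319 calls (2.59% of those tested), 358 higher and 961 lower. With the same control, clone #1 gave 805 calls (1.58%) and clone #2 gave 6379 (12.5%). 328 of the 1062 higher transcripts were called lower in WT 3 and 4 than in WT 1 and 2 (background 1.88%), with a median of -0.49, and 162 of the 681 lower transcripts were called higher (background 0.702%), with a median of 0.49. As a share of all counts, the 1062 higher transcripts took 3.95% and 4.08% in WT 3 and 4, 5.68% and 5.35% in WT 1 and 2, 6.7% and 6.28% in clone #1, and 6.81% and 6.63% in clone #2. The knockout libraries were above both wild type pairs, and further above the pair that chose the set. The 681 lower transcripts took 4.33% and 4.23% in WT 3 and 4 and 3.14% and 3.36% in WT 1 and 2. They took 2.55% and 2.69% in clone #1 and 2.27% and 2.41% in clone #2. What sets the wild type pairs apart was not tested.

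**Figure D3:**
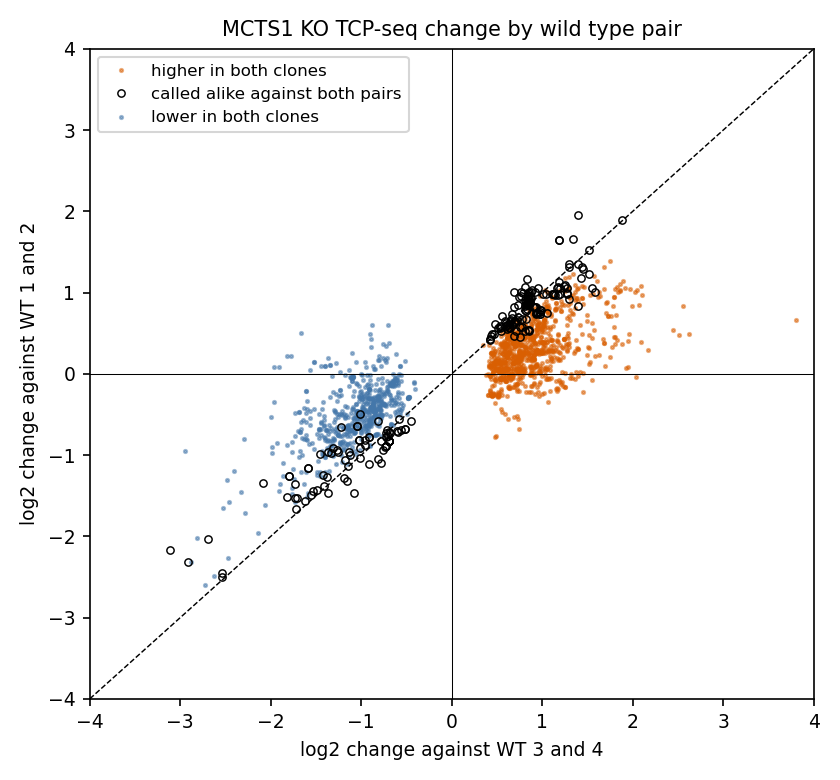
Log2 change of the 1743 transcripts that moved alike, for the mean of both clones against WT 3 and 4 (x axis) and against WT 1 and 2 (y axis); open circles mark those that moved alike against both pairs and the dashed line marks equal values. Most points lie between the dashed line and 0 on the y axis, which is the smaller change against WT 1 and 2.

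129 higher and 78 lower transcripts moved alike against both wild type pairs, 0.406% of those tested. Against WT 1 and 2 alone 489 transcripts moved alike (0.959%). The 129 higher transcripts fell into 70 groups by shared reads and had a median log2 change of 0.84 against WT 3 and 4 and 0.85 against WT 1 and 2. The 78 lower ones fell into 60 groups and had medians of -1.04 and -0.94. The median difference of WT 3 and 4 from WT 1 and 2 was -0.02 over the 129 and 0.06 over the 78, with 1 of the 129 called lower and 2 of the 78 called higher. It was 0.95 for ENST00000227507.2. As a share of all counts, the 129 transcripts took between 0.529% and 0.566% in the 4 wild type libraries and between 0.916% and 0.991% in the 4 knockout libraries. The 78 transcripts took between 0.543% and 0.61% in wild type and between 0.301% and 0.346% in the knockout. Both ranges are apart, as the choice of the members fixes. Without replicate 1 of clone #1 the number fell to 59, without WT replicate 2 to 70, without WT replicate 1 to 94, without replicate 2 of clone #1 to 114 and without WT replicate 3 to 118. With all libraries thinned to the same total it was 125. The split between higher and lower turned under some of these: it was 59 higher and 66 lower after thinning, 50 and 68 without WT replicate 3, 37 and 57 without WT replicate 1, 69 and 76 without replicate 1 of clone #2, and 50 and 70 without a filter on low counts.

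Each clone can also be set against a different wild type pair, so that the comparisons share no library. Clone #1 against WT 3 and 4 had 2547 calls and clone #2 against WT 1 and 2 had 6379. 739 transcripts were called in both (29% and 11.6% of the lists), where 12.5% and 4.99% of all transcripts tested were called in the other comparison. Of these, 367 were higher in both, 291 lower in both, and 81 went opposite ways. With the pairs exchanged, 805 and 9758 transcripts were called and 404 in both (50.2% and 4.14%, where 19.1% and 1.58% of all were called in the other), of which 215 were higher in both, 135 were lower in both and 54 were opposite. The log2 changes across all 50991 transcripts had a Spearman's rho of 0.29 and 0.25 in these arrangements. Transcripts are not independent replicates, and some share reads.

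RNA-seq and Ribo-seq of the same clones come from other libraries than those whose values chose the members, although the sets were drawn up with earlier results of these data known. In RNA-seq of both clones against wild type, 16.7% of the transcripts tested in TCP-seq were called higher and 21.4% lower. Of the 1050 higher transcripts with an RNA-seq value, 413 (39.3%) were called higher and 109 lower, and of the 595 lower ones, 320 (53.8%) were called lower and 59 higher. The mRNA changes were small beside those of TCP-seq, with medians of 0.07 and -0.17. All 129 transcripts that rose against both wild type pairs had an RNA-seq value, with 91 called higher and 0 lower by edgeR and a median of 0.21. 5 of them were lower at an unadjusted p under 0.05, and DESeq2 called 80 higher and 0 lower. The clones taken singly were less uniform: clone #1 had 93 of the 129 called higher and 17 lower (background 24.0% and 32.2%), and clone #2 had 67 higher and 5 lower (12.3% and 11.5%). Of the 52 measured among the 78 that fell against both pairs, 37 were called lower and 0 higher by edgeR, with a median of -0.17. None was higher at an unadjusted p under 0.05, and DESeq2 called 34 lower and 0 higher. By clone, the median of these 52 transcripts was -0.28 in clone #1, with 39 called lower and 1 higher, and -0.03 in clone #2, with 11 called lower and 6 higher. The difference between the clones was not tested for this set.

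In Ribo-seq most members were not called, and those called lay more often in the TCP-seq direction than against it. Of the transcripts tested in TCP-seq, 4.53% were called higher in Ribo-seq and 4.38% lower. Of the 1058 higher transcripts with a Ribo-seq value, 209 were called higher and 26 lower (median 0.14), and of the 554 lower ones 61 were called lower and 21 higher (median -0.13). For the transcripts that moved alike against both pairs, edgeR called 48 of 129 higher and 0 lower (median 0.23), and 20 of 54 lower and 0 higher (median -0.25). 0 lay against these directions at an unadjusted p under 0.05, and DESeq2 called 43 higher and 10 lower and 0 against. In clone #2 alone, 17 of the 129 were called higher and 0 lower (median 0.19), and of the 54 there were 5 called lower and 4 higher (median -0.10), where 2.99% of all transcripts were called in each direction.

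TCP-seq relative to RNA-seq was called in 2465 transcripts upward (5.89% of 41825 tested) and 3588 downward (8.58%), a split that became 4038 and 2277 with libraries scaled by their totals. It uses the same TCP-seq libraries that chose the members and is given as a description. Among the 1049 higher transcripts tested, 821 were called higher (median 0.62), and among the 588 lower ones 547 were called lower (median -0.98). Of the transcripts that moved alike against both pairs, 83 of 129 were called higher relative to their mRNA and 1 lower, and 43 of 52 were called lower. WT replicate 3 matters for the total: without it 2351 transcripts were called in all, without WT replicate 4 there were 3844, and without replicate 1 of clone #1 there were 3937, against 6053 with all libraries.

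**Figure D4:**
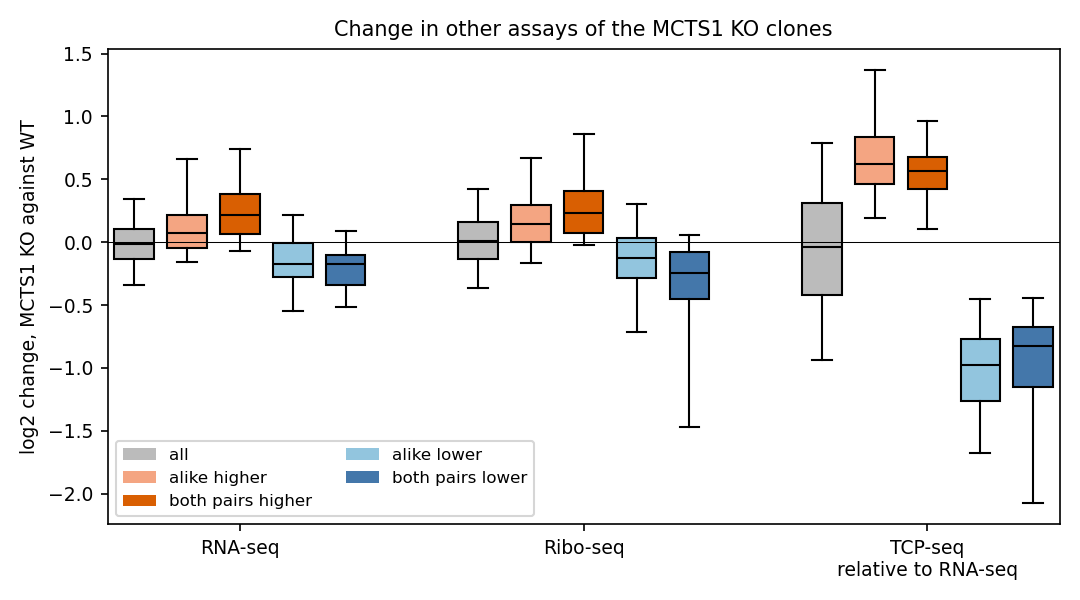
Log2 change of MCTS1 KO against wild type (y axis) in RNA-seq, Ribo-seq and TCP-seq relative to RNA-seq for all transcripts tested in TCP-seq (grey), those that moved alike and those that moved alike against both WT pairs. Boxes show the median and quartiles, whiskers the 5th and 95th percentiles; RNA-seq and Ribo-seq medians follow the TCP-seq direction at a smaller size.

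Among transcripts that RNA-seq of polyadenylated RNA barely detected, a larger share was called lower in the MCTS1 KO TCP-seq than among the rest, although most were not called. 1110 of the 50991 transcripts had TCP-seq counts yet did not pass the RNA-seq filter, with a median RNA-seq level of 0.00608 CPM and a median TCP-seq level of 7.11 CPM. What these RNAs are cannot be read from the identifiers. In the mean of both clones, 300 of them were called lower (27.0%) and 57 higher (5.14%), where 6.10% and 7.32% of the 49881 transcripts that passed the filter were called. The median log2 change of the 1110 was -0.47 against WT 3 and 4 and -0.40 against WT 1 and 2, and between the wild type pairs it was -0.05. The clones had medians of -0.26 and -0.59. With WT 1 and 2 as control, 221 were called lower (19.9%) and 19 higher, where 2.92% of the transcripts that passed the filter were called lower. They made up 86 of the 681 lower transcripts (12.6%) and 12 of the 1062 higher ones (1.13%), and 26 of the 78 that fell against both pairs (33.3%) and 0 of the 129 that rose.

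Library by library, the median log2 level of the 1110 transcripts was set against the median of all transcripts tested in that library, on the log2(CPM + 0.5) scale. The difference was 0.33 and 0.36 in WT 1 and 2 and 0.29 and 0.19 in WT 3 and 4. It was -0.10 and 0.00 in clone #1 and -0.25 and -0.10 in clone #2. The eIF2D KO libraries had 0.33 and 0.19 in clone #1 and 0.11 and 0.17 in clone #2. All 4 MCTS1 KO libraries were thus below all 8 other plain TCP-seq libraries. A fall of these transcripts was not particular to the MCTS1 KO, however. In the eIF2D KO their median log2 change against WT 1 and 2 was -0.26, where the MCTS1 KO had -0.40 with that control. The share of all counts, which a few abundant transcripts can set, did not part the groups: it was 7.01% and 7.68% in WT 3 and 4, 5.55% and 6.67% in WT 1 and 2, 5.73% and 6.53% in clone #1 and 4.54% and 4.90% in clone #2. In small-subunit complexes selected through V5-tagged MCTS1 these transcripts held 14.1% and 8.60% of the counts, through V5-tagged DENR 12% and 11.4%, and through V5-tagged eIF2D 6.2% and 3.4%. Their median differences were 0.545 and 0.806 for MCTS1, 0.93 and 0.92 for DENR, and 0.206 and -0.158 for eIF2D. The MCTS1 and DENR libraries were shallow. In replicate 1 of each, 2 counts made 5.62 CPM for MCTS1 and 4 counts made 6.35 CPM for DENR. In replicate 1 of knockout clone #2, 24 counts made 7.28 CPM. Selected and plain libraries were not tested against each other for these transcripts.

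**Figure D5:**
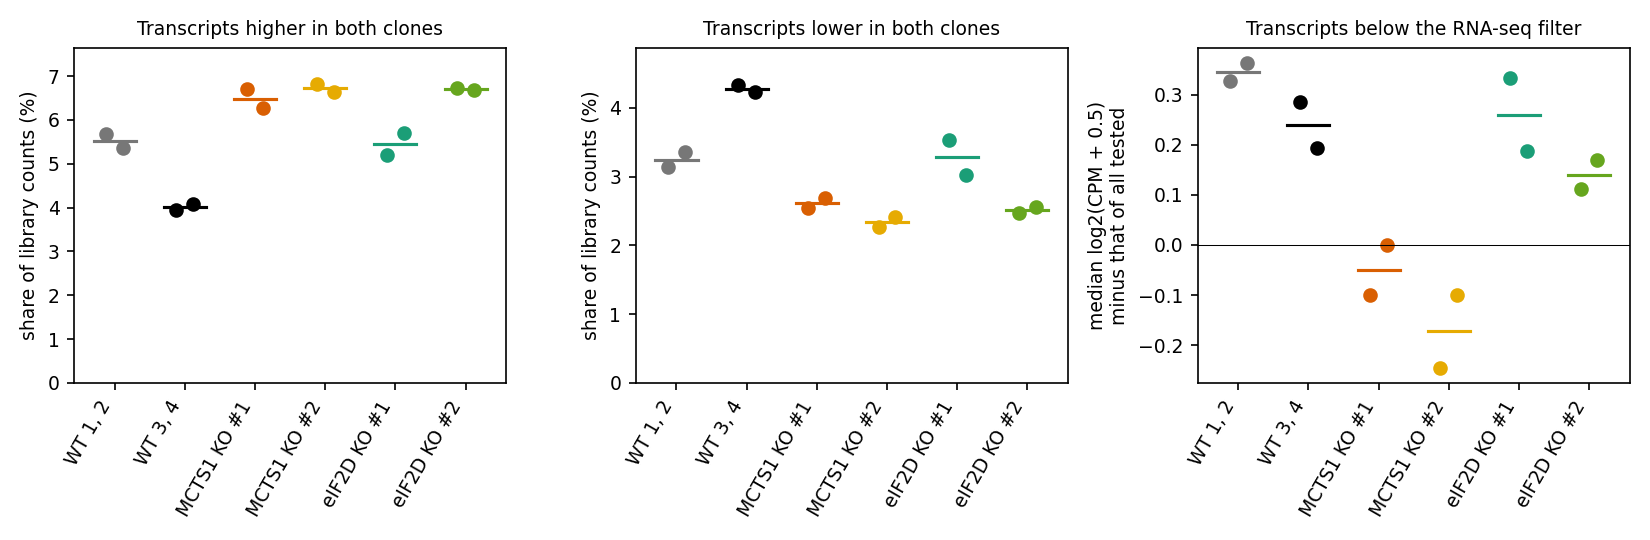
Values per plain TCP-seq library (points; lines are means of 2). Left and middle, share of library counts in percent taken by the 1062 transcripts higher and the 681 lower in both clones; right, median log2(CPM + 0.5) of the 1110 transcripts below the RNA-seq filter minus that of all tested, where the 4 MCTS1 KO libraries lie between -0.25 and 0.00 and the other 8 between 0.11 and 0.36.

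The eIF2D KO and DENR siRNA samples give the members' values in related backgrounds. eIF2D KO against WT 1 and 2 shares no library with the choice of the 1743 transcripts. It called 42 of the 1062 higher transcripts higher and 12 lower (background 0.604% and 1.01%), with a median of 0.08, and 58 of the 681 lower transcripts lower and 1 higher, with a median of -0.19. In their share of counts the 1062 transcripts took 5.2% and 5.71% in eIF2D KO clone #1 and 6.74% and 6.68% in clone #2. The latter pair lies within the range of the MCTS1 KO libraries. The 681 lower transcripts took 3.54% and 3.03% in eIF2D KO clone #1 and 2.47% and 2.56% in clone #2, again within that range for clone #2. Of the transcripts that moved alike against both pairs, the eIF2D KO had 25 of 129 called higher and 0 lower. It had 19 of 78 called lower and 1 higher. WT 1 and 2 entered the choice of these transcripts, so this likeness is partly built in. Under DENR siRNAs, RNA-seq called 13.7% of the transcripts tested in TCP-seq higher and 20.1% lower. It called 208 of 595 lower members lower (35.0%) and 66 higher, and of 1048 higher members 165 higher (15.7%) and 101 lower. The share of higher members called higher is near the background. Ribo-seq under DENR siRNAs called 118 of the higher members higher and 127 lower (median -0.01), and 62 of the lower members lower and 53 higher (median -0.03), where 7.12% of all were called higher and 9.42% lower.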

How the data were processed

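The authors deposited 1 table of raw counts, in whole numbers, for each transcript. The submitters' processing notes name Subread, featureCounts, STAR and cutadapt with no versions, and the builds GRCh38.p13 and hg38. For strand, duplicates and reads that overlap several transcripts, the treatment is not given in sources used here. The TCP-seq fraction and protocol of the plain libraries are likewise not given there.

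Groups were taken from the sample labels. The 12 plain TCP-seq libraries shared one model in edgeR 4.0.16 (R 4.3.3): quasi-likelihood test, robust fit, a minimum count of 10 in filterByExpr, TMM scaling, 1 coefficient per group, Benjamini-Hochberg adjusted p under 0.05. RNA-seq and Ribo-seq were fitted on their own 6 libraries, and TCP-seq relative to RNA-seq as an interaction. The mean of both clones leaves out the spread between clones. Standard errors are the size of a log2 change divided by the root of F. CPM is a count divided by the library's total and scaled to the same total in every library. The scripts were tested on simulated data. Alternatives included DESeq2 1.42.0, other scalings, filters and controls, and leaving out each library.

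The members, lists and tests were chosen with earlier results of these data known. The design had assumed counts per gene and named genes from a table of symbols. As no table here pairs transcripts with genes, the tests were run per transcript, the gene and marker lists were not tested, and the text names the 2 largest rises and 2 largest falls among transcripts called alike in both clones with a mean of at least 5 CPM. Transcripts that moved alike against both wild type pairs, those under the RNA-seq filter, clones set against different pairs, and thinning were chosen after seeing the data. Replicate numbers did not pair the libraries, since the deviations of libraries with the same number had correlations of -0.05 to 0.07.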

Additional observations from a re-analysis of the deposited data

Results flagged for a closer look

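The 2 MCTS1 KO clones differed from each other in 1756 transcripts (3.44% of the 50991 tested, edgeR quasi-likelihood test of clone #1 against clone #2), 811 higher and 945 lower in clone #1. Among the transcripts called alike in both clones, this test called 5.46% of the higher and 9.10% of the lower ones. The clones also differ in depth, and the part of depth in this count was not tested.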

How the results depend on the processing

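Counts of called transcripts moved with the tool, the filter and the control more than with the scaling. DESeq2 called 2198 for the mean of both clones, 795 for clone #1, 2863 for clone #2, 444 alike, 45 alike against both wild type pairs, 813 against WT 1 and 2, 522 between the wild type pairs, 19324 in RNA-seq and 4229 in Ribo-seq, and gave no adjusted p for ENST00000456658.1 and ENST00000474340.1. Without a filter on low counts there were 1588 for clone #1, 1094 alike, 120 alike against both pairs and 2072 against WT 1 and 2. With WT 1 and 2 as control there were 3425, 805 and 6379 for the mean and the clones and 489 alike. With all 4 wild type libraries as 1 group, clone #1 had 775 and 462 were alike. Thinned to 1609303 counts, clone #2 had 5949 and 125 were alike against both pairs.

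Leaving out each library in turn gave 2490 to 6847 for the mean, 682 to 2620 for clone #1, 4135 to 9917 for clone #2, 475 to 1476 alike, 59 to 185 alike against both pairs, 1347 to 3501 against WT 1 and 2, 419 to 967 between the wild type pairs, 19373 to 32393 in RNA-seq, 2535 to 15372 in Ribo-seq and 2351 to 6166 for TCP-seq relative to RNA-seq. A group left with 1 library is assumed to vary like the others. Beside the libraries named with their results above, a count moved by over 1.5 times against WT 1 and 2 without WT 1 (1358), WT 2 (1347) or replicate 1 of clone #1 (2142), between the wild type pairs without WT 1 (419), WT 3 (440) or WT 4 (862), in RNA-seq without WT replicate 2 (19373), and in Ribo-seq without WT replicate 2 (15372), either replicate of clone #1 (4590 and 4395) or either of clone #2 (3057 and 2535). The 2 named falls kept direction and call under every alternative that gave an adjusted p, and the 2 named rises lost it with WT 1 and 2 as control (0.29 and 0.40, edgeR adjusted p 0.59 and 0.56).

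With the replicate number as a block and WT 1 and 2 as control there were 3644 for the mean, 916 for clone #1 and 559 alike, where the same 10 libraries had 3405 for the mean without the block. RNA-seq had 31419 and Ribo-seq 8238 with the block. No such block was possible for WT 3 and 4, which share no number with the knockout libraries. Fewer of the less abundant transcripts were called, and the part of depth in this was not tested by level.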
